A study of Mus musculus with 4 samples.

Results

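Clec18a, Greb1, Papss2, Tmem100, Npy, Kcnj15 and Ccdc85a are genes reported as markers of the renal vesicle. They were taken by name, with earlier results of these data known. Each was represented by every probe set that the platform annotation assigns to that gene alone. This gave 17 probe sets for 7 of the 18193 genes so named on the array. The renal vesicle is the first epithelial stage of the nephron. It forms when cells of the condensed mesenchyme around a ureteric bud tip change into a small polarised sphere, and Wnt4, a secreted signal made by those cells, is needed for this step. The vesicle then lengthens into comma-shaped and S-shaped bodies, which give rise to podocytes and to the proximal and distal tubule.

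RNA of whole E14.5 kidneys (embryonic stage, Theiler stage 22) was read on 4 Affymetrix Mouse430_2 arrays. The 2 mutant arrays held RNA of pools of 12 kidneys each from Wnt4 null embryos carrying the allele Wnt4tm1Amc, with 129 given as the strain. The 2 wild-type arrays held RNA of pools of 2 kidneys each, with CD-1 given as the strain. The protocol text, shared by all arrays, speaks of CD-1 matings only. Genotype, strain label and pool size changed together and cannot be told apart. Pools stood as biological replicates in the labels, which do not say whether their litters differed. The p-values therefore cover the spread among these 4 pools.

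Values are deposited signals on a linear scale, with 1 value of each probe set on each array. The median signal was 137.5 and 159.3 on the mutant arrays and 150.9 and 148.9 on the wild-type arrays. Differences are mutant minus wild type on the log2(signal + 16) scale from limma, and a probe set was called when its p, adjusted by the Benjamini-Hochberg method over the 27022 tested probe sets, was under 0.05. The smallest two-sided p of an exact permutation test here would be 0.33. Wnt4 itself fell at both of its probe sets. The brighter, 1450782_at, had signals of 406 and 272 in mutant kidneys, against 1885 and 1770 in wild-type kidneys, a log2 difference of -2.40 ± 0.18 (SE, adjusted p = 0.000196). No comparison of probe set position with the altered stretch of Wnt4 was made, so this is a level and no check of the allele. Marker genes of other cell types differed as well. Of 11 tested stroma genes 8 were higher in the mutant, with a summed signal of 57309 to 57809 in mutant kidneys and 32756 to 33261 in wild-type kidneys, and of 10 tested skeletal muscle genes 6 were higher (3 when the variance was modelled without its trend on signal), with summed signals of 8037 to 8612 in mutant kidneys and 1672 to 2710 in wild-type kidneys. Their part in the results below was not tested. Since whole organs were measured, fewer cells of a type and less RNA per cell cannot be told apart.

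Of the 17 probe sets, 8 were called lower in Wnt4 mutant kidneys and 0 higher. The other 9 lay among the dimmest 40% of probe sets and were not tested. Over all tested probe sets 5.39% were called lower and 5.41% higher, 10.8% in all. With no filter on low signals, so that all 17 were tested, the same number, 8, was called lower, where 2.19% of all probe sets were. The filter used the mean of all arrays, and probe sets that are bright only in wild-type kidneys pass it through those arrays, so the share of tested probe sets that were called says little by itself. Over all 17 probe sets the median log2 difference was -1.24, against -0.01 over all probe sets of the array. Because the members were chosen with earlier results known, their counts and medians, here and below, are no independent test. By gene, 5 of the 7 members (Clec18a, Greb1, Papss2, Tmem100 and Npy) fell at 1 probe set or more, and 2 (Kcnj15 and Ccdc85a) had no tested probe set.

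**Figure D1:**
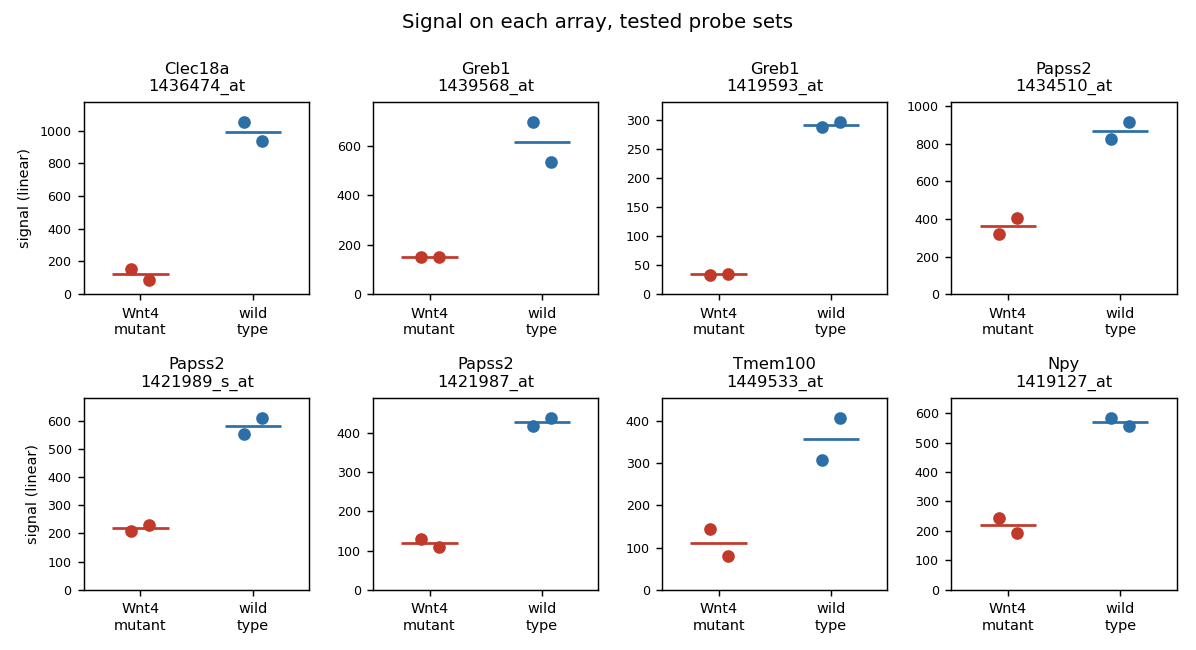
Signal on each array (vertical axes, linear, each starting at 0) for the 8 tested probe sets of the marker genes. Points are single arrays, with 2 Wnt4 mutant arrays on the left and 2 wild-type arrays on the right of each panel, and lines are group means. In every panel both mutant points lie below both wild-type points.

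Clec18a, which encodes a protein with a C-type lectin domain, the fold by which many animal proteins bind sugars, fell at its only probe set. Signals at 1436474_at were 152 and 88.7 in mutant kidneys, against 1051 and 939.8 in wild-type kidneys. The mutant arrays lay far below the wild-type arrays and kept 12.1% of the mean wild-type signal. The log2 difference was -2.93 ± 0.24 (SE), or 7.62-fold lower, with an adjusted p of 0.000283 and rank 48 from the lowest among the 27022 tested probe sets.

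Greb1 encodes a nuclear protein known in human breast cancer cells as an oestrogen-induced partner of the oestrogen receptor. Its brightest probe set, 1439568_at, read 149 and 152 in mutant kidneys, against 697 and 535 in wild-type kidneys. Another, 1419593_at, read 32.9 and 34.5 in mutant kidneys, against 289 and 296 in wild-type kidneys. At both, the groups were well apart and the mutant arrays lay close together. The log2 differences were -1.91 ± 0.20 (adjusted p = 0.000837) at the brighter and -2.63 ± 0.29 (adjusted p = 0.00125) at the dimmer probe set. The dimmer one depended on the added constant, with -1.87 when 64 was added in place of 16 and -3.08 when 1 was added, and it was called with either. Whether the probe sets differ from each other was not tested. Of the 2 untested Greb1 probe sets, 1445323_at read 34.2 and 42.5 in mutant kidneys, against 103 and 82.9 in wild-type kidneys. The remaining one, 1445324_s_at, read 24.7 and 114 in mutant kidneys, against 36.8 and 61.5 in wild-type kidneys, so here the mutant arrays enclosed the wild-type arrays.

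Papss2 encodes an enzyme that makes PAPS, the activated sulphate that sulphotransferases pass on to proteoglycans, steroids and other molecules. All 3 of its tested probe sets fell. At 1434510_at signals were 320 and 403 in mutant kidneys, against 826 and 915 in wild-type kidneys, a log2 difference of -1.24 ± 0.16 (adjusted p = 0.00242). At 1421989_s_at they were 209 and 231 in mutant kidneys, against 554 and 609 in wild-type kidneys (-1.34 ± 0.17, adjusted p = 0.00226). Mutant kidneys kept 41.6% of the mean wild-type signal at the brighter and 37.8% at the dimmer of these, and the groups were apart at both. At 1421987_at they were 129 and 108 in mutant kidneys, against 416 and 437 in wild-type kidneys (-1.72 ± 0.21, adjusted p = 0.00197). The fourth probe set, 1421988_at, was not tested and was dim on every array, with 19.7 and 9.53 in mutant kidneys and 15.9 and 17.4 in wild-type kidneys.

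Npy encodes neuropeptide Y, a secreted peptide best known from neurons of the brain and the sympathetic system. Its only probe set, 1419127_at, gave 245 and 194 in mutant kidneys, against 583 and 555 in wild-type kidneys. The groups did not overlap, and the wild-type arrays differed little. The log2 difference was -1.32 ± 0.18 (adjusted p = 0.00336), a 2.50-fold lower level. Sympathetic neurons and the adrenal medulla, which can be carried along with a kidney, also make this peptide. Of 7 tested genes of a sympathoadrenal and neural list, limma called 0 (1 at an unadjusted p under 0.05, higher in the mutant), and their summed signal was 1496 and 1613 in mutant kidneys, against 1477 and 1270 in wild-type kidneys. Th, Chgb, Hand2 and Tubb3 of that list were too dim to be tested, and no gene of it was at 0. The part of such tissue in the Npy result was not tested.

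Tmem100 encodes a small protein with membrane-spanning segments, known in blood vessel endothelium as a target of the BMP receptor ALK1. Signals at 1449533_at were 144 and 79.9 in mutant kidneys, against 308 and 407 in wild-type kidneys. The groups did not overlap, but the arrays within each group differed more, relative to their mean, than for Npy or Papss2. The log2 difference was -1.58 ± 0.30 (adjusted p = 0.0138), and the call was lost when the variance was modelled without its trend on signal (adjusted p = 0.0759). A second, untested probe set, 1446625_at, read 63.5 and 81.2 in mutant kidneys, against 81.3 and 87.4 in wild-type kidneys. Of 14 tested endothelial markers 3 (Plvap, Cldn5 and Emcn) were called lower, 0 were called higher and 11 did not pass, and none had a signal of 0. Their median log2 difference was -0.26, with a range from -0.88 to -0.006. At an unadjusted p under 0.05 6 were lower and 0 higher. Without the variance trend 1 of the 3 was called. Their summed signal was 13943 to 14369 in mutant kidneys and 17367 to 18269 in wild-type kidneys, and their part in the Tmem100 result was not tested.

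Kcnj15 encodes Kir4.2, a potassium channel subunit of the inward rectifier family. All of its 3 probe sets were too dim to be tested. At 1435354_at signals were 52.1 and 9.02 in mutant kidneys, against 105 and 78.0 in wild-type kidneys, so the groups did not overlap. At 1443054_at they were 46.6 and 94.8 in mutant kidneys, against 143 and 68.0 in wild-type kidneys, and the groups overlapped. At 1450185_a_at they were 8.93 and 7.79 in mutant kidneys, against 11.4 and 5.98 in wild-type kidneys, close to the bottom of the scale. In the fit without the filter the adjusted p-values were 0.245, 0.703 and 0.988 in this order, so a change of Kcnj15 was not detectable at these signals.

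Ccdc85a encodes a coiled-coil protein of a family that binds catenins of the p120 group in human cells. Its 2 probe sets were likewise untested. At 1427157_at signals were 108 and 83.3 in mutant kidneys, against 44.9 and 93.8 in wild-type kidneys. At 1452332_at they were 69.8 and 74.9 in mutant kidneys, against 48.6 and 68.4 in wild-type kidneys, with both mutant arrays above both wild-type arrays. The adjusted p-values without the filter were 0.686 and 0.810, and these data give no direction for Ccdc85a.

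**Figure D2:**
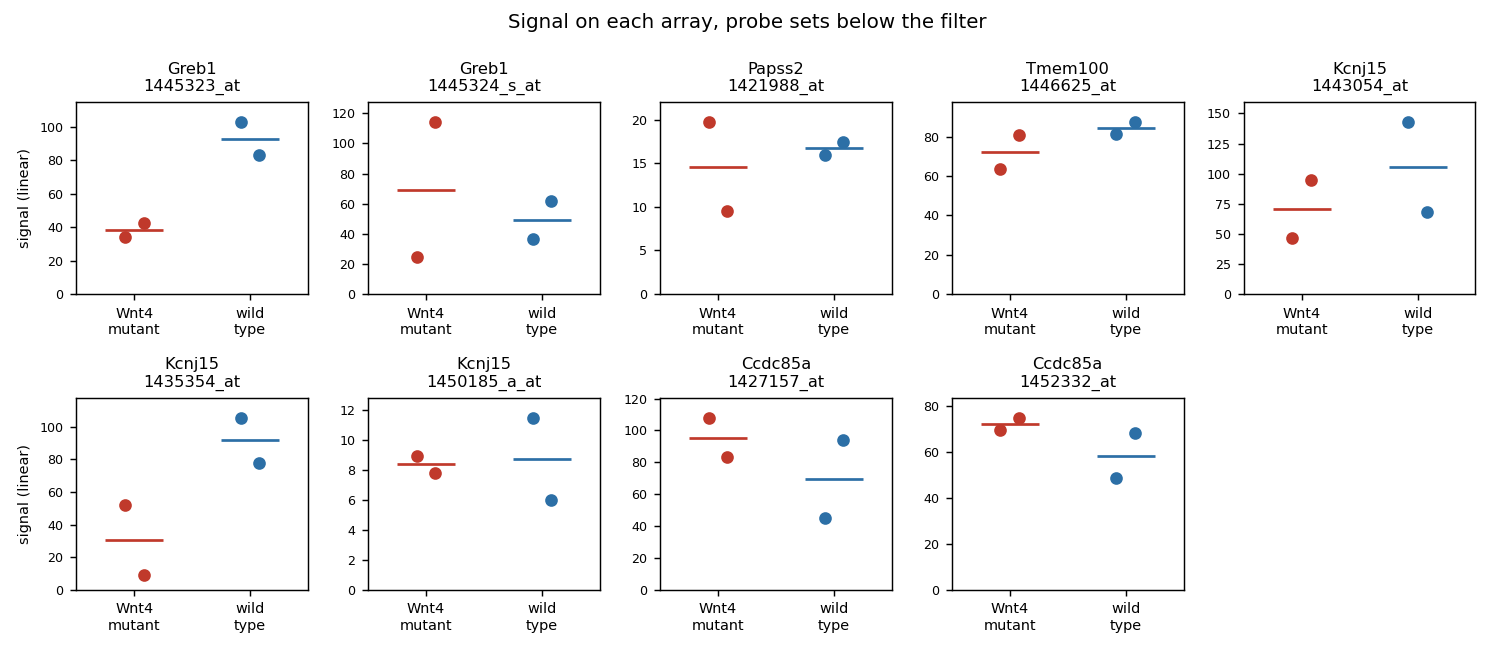
Signal on each array (vertical axes, linear, each starting at 0) for the 9 probe sets of the marker genes that were too dim to be tested. Points are single arrays, with 2 Wnt4 mutant arrays on the left and 2 wild-type arrays on the right of each panel, and lines are group means. Mutant points lie below wild-type points in 3 panels, above them in 1 and among them in 5. Of all probe sets of the array 24.0% had both mutant arrays below both wild-type arrays.

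Counting every probe set of the 7 genes, both mutant arrays lay below both wild-type arrays in 11 of 17, where 24.0% of all probe sets of the array did so. Among the 5 genes that fell, the brightest probe set kept 12.1% of its mean wild-type signal for Clec18a, 24.5% for Greb1, 31.3% for Tmem100, 38.6% for Npy and 41.6% for Papss2. Neighbours in this order were not tested against each other, and the differences of Npy (-1.32 ± 0.18) and Papss2 (-1.24 ± 0.16) were closer to each other than their standard errors. The plot of all tested probe sets shows where the 8 lie.

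**Figure D3:**
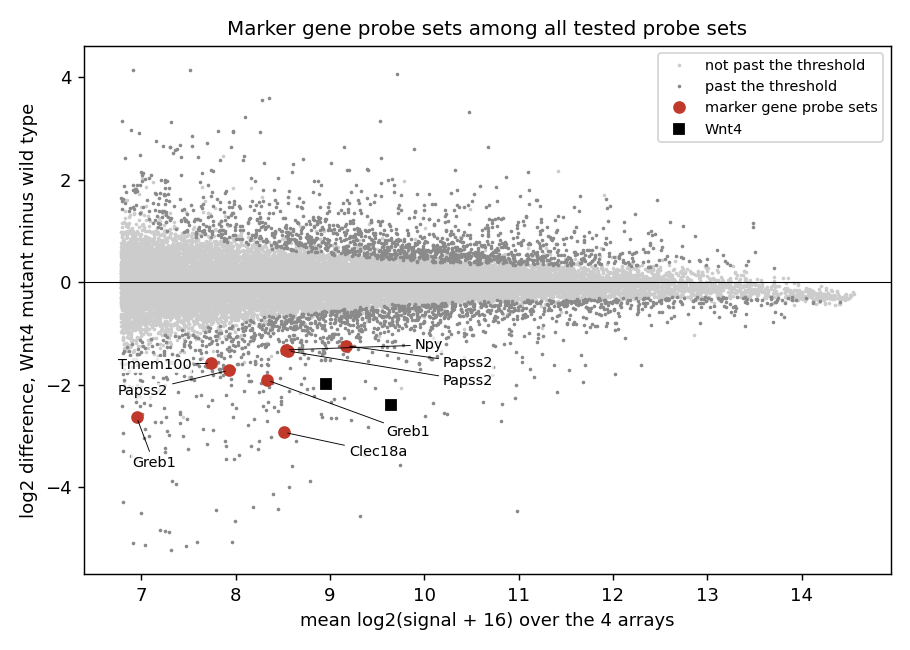
Log2 difference of Wnt4 mutant minus wild-type kidneys (vertical axis) against the mean log2(signal + 16) over the 4 arrays (horizontal axis) for the 27022 tested probe sets. Red points are the 8 tested probe sets of the marker genes, with differences from -2.93 to -1.24, black squares are Wnt4, and dark grey points are the other called probe sets.

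RefSeq promoter sequences of build GRCm38.p6 matched 6 of the 7 members, all but Tmem100. They gave 8 starts, each taken as the stretch of 250 bases that ends just before it. Promoters of Clec18a, Greb1, Papss2 and Npy are shown, since these genes fell, except that the downstream start of Papss2 is not printed. Those of Kcnj15 and Ccdc85a, which were not tested for a change, were searched as well. Each was searched on both strands for 5 short motifs, whose matches did not overlap in these promoters: CTTTGAT and CTTTGTT, bound by TCF/LEF factors that act in Wnt signalling, TAATTA, bound by LIM homeodomain factors such as Lhx1, TGGGAA, bound by the Notch effector RBPJ, and GTTAAT, a half-site of the hepatocyte nuclear factor HNF1. Letters in capitals mark a match, and all sequences run 5′ to 3′ on the gene's strand.
Clec18a, chr8:111081709-111081958, minus strand: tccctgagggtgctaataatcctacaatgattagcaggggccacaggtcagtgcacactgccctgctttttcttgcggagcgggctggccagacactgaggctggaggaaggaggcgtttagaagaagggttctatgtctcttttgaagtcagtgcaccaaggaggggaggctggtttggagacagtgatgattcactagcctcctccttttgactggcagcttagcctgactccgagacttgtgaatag
Greb1 upstream start, chr12:16800887-16801136, minus strand: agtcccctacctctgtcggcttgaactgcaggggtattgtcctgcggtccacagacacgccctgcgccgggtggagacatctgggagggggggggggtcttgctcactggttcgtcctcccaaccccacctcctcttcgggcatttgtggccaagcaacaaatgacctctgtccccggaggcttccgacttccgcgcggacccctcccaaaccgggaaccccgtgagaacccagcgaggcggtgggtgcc
Greb1 downstream start, chr12:16757240-16757489, minus strand: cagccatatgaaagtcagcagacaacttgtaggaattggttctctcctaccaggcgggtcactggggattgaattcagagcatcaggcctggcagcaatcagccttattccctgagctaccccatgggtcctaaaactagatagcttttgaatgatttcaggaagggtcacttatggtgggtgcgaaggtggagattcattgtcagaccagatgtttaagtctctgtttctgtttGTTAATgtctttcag
Papss2 upstream start, chr19:32595465-32595714, plus strand: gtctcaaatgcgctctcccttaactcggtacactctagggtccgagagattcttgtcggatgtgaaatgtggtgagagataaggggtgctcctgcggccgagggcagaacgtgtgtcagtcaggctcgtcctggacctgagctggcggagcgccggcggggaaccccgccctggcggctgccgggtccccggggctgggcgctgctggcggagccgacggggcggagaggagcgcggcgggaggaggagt
Npy, chr6:49822460-49822709, plus strand: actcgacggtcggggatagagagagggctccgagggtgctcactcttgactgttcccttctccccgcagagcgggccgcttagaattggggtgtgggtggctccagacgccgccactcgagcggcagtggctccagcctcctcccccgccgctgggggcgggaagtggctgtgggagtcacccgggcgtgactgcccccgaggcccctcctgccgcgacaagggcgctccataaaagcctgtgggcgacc
Of all 32851 RefSeq mouse promoters 35.1% held 1 or more of these motifs in the same window, and 2 of the 8 member promoters did. The downstream start of Greb1 held GTTAAT from 15 to 10 bases before the start, a motif found in 6.43% of all promoters. The Kcnj15 promoter, not printed, held CTTTGTT on the other strand from 247 to 241 bases before the start, a motif in 5.03% of all promoters. The motif CTTTGAT, in 3.21% of all promoters, was in none of the 8. Neither was TAATTA, which 4.84% of all promoters held. The RBPJ motif, in 21.6% of all promoters, was likewise in none. A match is a string of letters only and no measure of binding, and these windows leave out all other sequence of the genes.

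Established renal vesicle genes gave the setting for these members. Of a list of 20 that shares no gene with them, 19 were tested, 15 were lower in the mutant, 0 were higher and 4 did not pass, with a median log2 difference of -1.60. Over all 13432 genes taken by their brightest tested probe set, 5.82% were lower and 6.70% higher. The list includes Wnt4 itself. It was chosen with earlier results of these data known, so its count is no independent test. The smallest p-values in it were those of the zinc finger gene Osr2 (-5.16), the Wnt antagonist gene Dkk1 (-2.26) and the Notch ligand gene Jag1, which was called at 1 of its 3 probe sets (-1.81). The differences of the members' brightest probe sets, -2.93 to -1.24, lay within the range of that list, -5.16 to 0.26. Of tested proximal tubule genes 10 of 11 were lower (median -3.38), of loop and distal tubule genes 8 of 9 (median -2.67), and of podocyte genes 5 of 9 (median -0.70). Irx1, Irx2 and Pou3f3 are in both the loop and distal tubule list and the renal vesicle list, and count as lower in each. Genes of the cap mesenchyme and of the ureteric bud were called both ways. In the cap mesenchyme list 3 were lower and 3 higher of 11 tested, and in the ureteric bud list 4 were lower and 2 higher of 12 tested. The count of higher genes was 0 in both lists without the variance trend and without mutant replicate 2, and 1 in both with no filter. In the ureteric bud list it was also 0 without mutant replicate 1 and with median centring. The count of lower cap mesenchyme genes was 1 without the variance trend.

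Genes of the sulphation pathway around Papss2 were called in both directions. Of 23 other tested genes of this list, 3 were lower, 4 were higher and 16 did not pass, with a median log2 difference of 0.02. The count of higher genes was 0 without the variance trend, 1 without mutant replicate 1 and 0 without mutant replicate 2. Papss1, the other PAPS synthase, had signals of 3659 and 3587 in mutant kidneys, against 3349 and 3151 in wild-type kidneys, a difference of 0.16 ± 0.08 that did not pass (adjusted p = 0.287). Both of its mutant arrays lay above the wild-type arrays, opposite to Papss2. The sulphate transporter gene Slc26a2 differed by 0.02 ± 0.11 (adjusted p = 0.955). Among enzymes that use PAPS, the cytosolic sulphotransferase gene Sult1d1 fell to 18.6 and 37.8 in mutant kidneys, against 1444 and 1407 in wild-type kidneys, a difference of -5.06 ± 0.25 (adjusted p = 3.52e-05). With a constant of 64 it was -4.02. The carbohydrate sulphotransferase gene Chst2 fell to 254 and 280 in mutant kidneys, against 511 and 494 in wild-type kidneys (adjusted p = 0.0129). Without mutant replicate 1 Chst2 was not called (adjusted p = 0.0604). Hs2st1, a heparan sulphate sulphotransferase gene, was higher, at 2905 and 2794 in mutant kidneys, against 2013 and 2009 in wild-type kidneys (adjusted p = 0.00928), while the other 3 of its 4 probe sets did not pass. That call was lost without mutant replicate 1 (adjusted p = 0.0847), without mutant replicate 2 (0.0551) and without the variance trend (0.108). Bpnt1 was the other gene of the list that was lower, and Sult1a1, Chst11 and Hs6st2 were the other genes that were higher, named here after their values were seen.

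Genes that make, cut or receive neuropeptide Y went both ways. Of 6 other tested genes of this list, 1 was lower, 3 were higher and 2 did not pass. Dpp4, a cell surface peptidase that trims neuropeptide Y and also lines the proximal tubule, fell to 186 and 259 in mutant kidneys, against 1372 and 1659 in wild-type kidneys, a difference of -2.69 ± 0.18 (adjusted p = 0.000117). Of its 4 probe sets 2 were tested, and both were called lower. The summed signal of 11 proximal tubule genes was 1211 and 1252 in mutant kidneys, against 9742 and 10276 in wild-type kidneys, and its part in the Dpp4 result was not tested. Pam, which amidates peptide hormones, rose to 1583 and 1705 in mutant kidneys, against 703 and 531 in wild-type kidneys (1.40 ± 0.15, adjusted p = 0.000871). Cpe, a carboxypeptidase that trims their precursors, rose to 4036 and 3805 in mutant kidneys, against 2069 and 2203 in wild-type kidneys (0.87 ± 0.09, adjusted p = 0.000725). The receptor gene Npy1r gave 240.0 and 260.1 in mutant kidneys, against 29.6 and 69.6 in wild-type kidneys at 1421471_at, a difference of 2.09 ± 0.37 (adjusted p = 0.00992). Its other probe set, 1426054_at, pointed the other way and did not pass, with 74.7 and 98.5 in mutant kidneys, against 148 and 129 in wild-type kidneys (adjusted p = 0.271). The Npy1r call was also lost without the variance trend (adjusted p = 0.0530), and its difference was 1.49 with a constant of 64, so its direction is not settled here. The receptor genes Npy2r and Npy5r were too dim to be tested.

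Few genes around Tmem100 were called. Of 13 other tested genes of the ALK1 and BMP response list, 2 were lower, 0 were higher and 11 did not pass. Among all 14, Tmem100 included, 7 were at an unadjusted p under 0.05, 4 of them lower and 3 higher. Without the variance trend 0 genes of this list were called lower, Tmem100 included. Acvrl1, which encodes ALK1, read 241 and 218 in mutant kidneys, against 255 and 152 in wild-type kidneys, a difference of 0.20 ± 0.27 (adjusted p = 0.711). The type II receptor gene Bmpr2 differed by 0.33 ± 0.09 at its brightest probe set (adjusted p = 0.0501). Of its 3 tested probe sets 2, this one included, did not pass, and the remaining one was called. The brightest was called with a constant of 64 (adjusted p = 0.0479) and with the stricter filter (0.0397). Without wild-type replicate 2 its difference was 0.35. The BMP target Id1 fell to 1881 and 1794 in mutant kidneys, against 2663 and 2770.2 in wild-type kidneys (-0.56 ± 0.09, adjusted p = 0.00624) and was not called without mutant replicate 2 (adjusted p = 0.0547) or without the variance trend (0.0914). Eng, the co-receptor endoglin, fell by 0.56 on the log2 scale at 1 of 2 probe sets (adjusted p = 0.0301), and that call was lost in 6 of 12 alternatives.

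The other families gave no call besides that of Greb1, and their members Kcnj15 and Ccdc85a were not tested. Of 8 tested Kir channel genes limma called 0 (1 at an unadjusted p under 0.05). Among the partners of Kcnj15, Kcnj10 read 83.0 and 116 in mutant kidneys, against 152 and 239 in wild-type kidneys (adjusted p = 0.133), and Kcnj16 differed by -0.30 ± 0.22 (adjusted p = 0.472). Kcnj1, the channel gene of the loop and distal tubule, was too dim on average to be tested, with 23.5 and 26.6 in mutant kidneys, against 175 and 245 in wild-type kidneys. Kcnj11 was called lower without mutant replicate 2 (adjusted p = 0.0287), against 0.371 with all arrays. Of 7 other tested genes of the oestrogen response list limma called 0 (among all 8, 2 at an unadjusted p under 0.05, of which Greb1 was 1). Greb1l, the paralogue of Greb1, read 184 and 78.9 in mutant kidneys, against 161 and 255 in wild-type kidneys, with overlapping groups (-0.67 ± 0.39, adjusted p = 0.337), and the receptor gene Esr1 was too dim to be tested. Of 7 tested genes of the CCDC85 and catenin list limma called 0 (1 at an unadjusted p under 0.05). Ccdc85b, a paralogue of Ccdc85a, read 539 and 443 in mutant kidneys, against 665 and 556 in wild-type kidneys (adjusted p = 0.284).

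**Figure D4:**
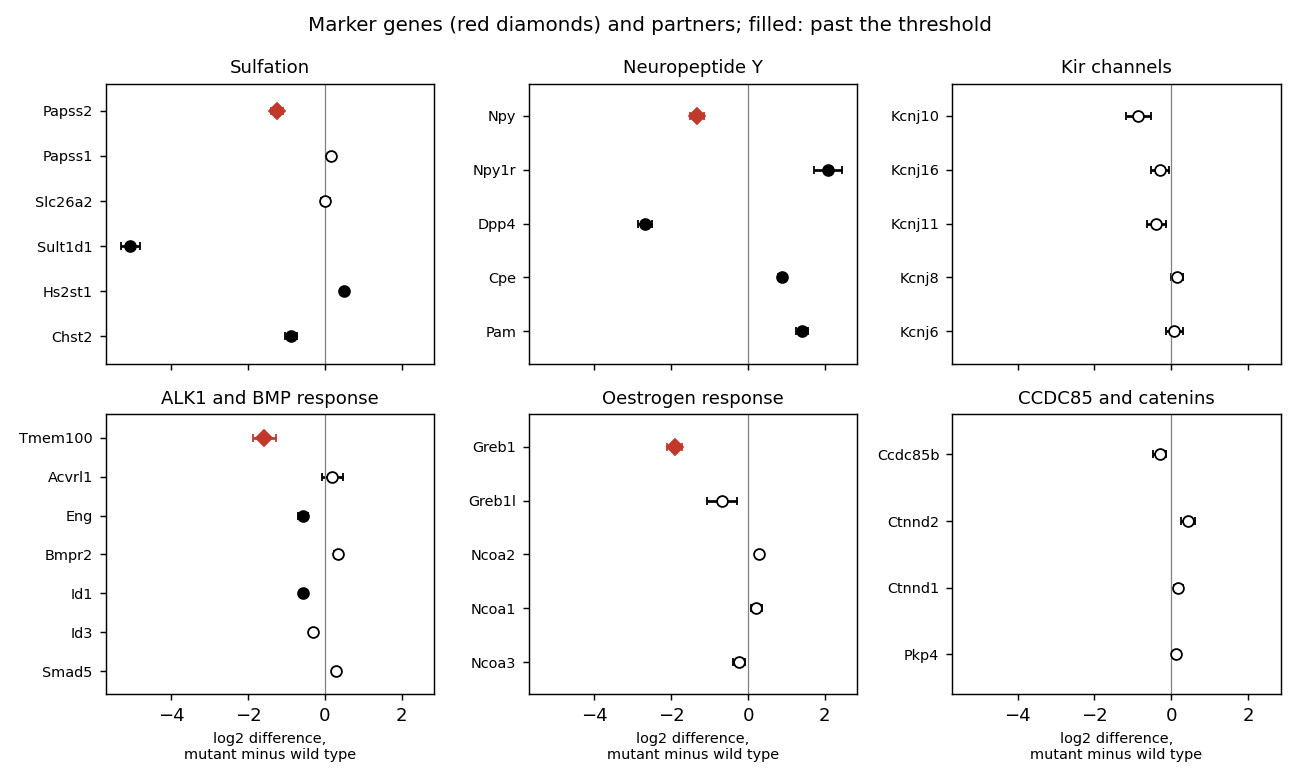
Log2 difference of Wnt4 mutant minus wild-type kidneys (horizontal axis) with its standard error for marker genes (red diamonds, brightest probe set) and named genes of the 6 pathway lists (circles). Filled symbols are past the threshold. Papss2, Npy, Tmem100 and Greb1 lie left of 0, while the genes beside them lie on both sides, from -5.06 for Sult1d1 to 2.09 for Npy1r.

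The genes most like each fallen member were sought among the 13432 genes by the root mean square difference of centred log2 values over the 4 arrays. Nearest to Clec18a were the gene 1700006J14Rik (0.18) and the fucosyltransferase gene Fut9 (0.20), and nearest to Greb1 were Me3, which encodes a mitochondrial malic enzyme (0.06), and the fatty acid binding protein gene Fabp4 (0.06). Papss2 was closest to the LIM domain gene Lmo7 (0.02) and to the cadherin gene Cdh6 (0.03), Tmem100 to the glycosyltransferase gene Gcnt1 (0.11) and Thnsl2 (0.16), and Npy to the homeobox gene Uncx (0.05) and to Metrnl, which encodes a secreted protein (0.05). Uncx, a gene of the cap mesenchyme list, read 1358 and 1124 in mutant kidneys, against 3405 and 3012 in wild-type kidneys. Cdh6, a gene of the renal vesicle list, read 428 and 517 in mutant kidneys, against 1103 and 1199.7 in wild-type kidneys. All 10 were chosen for being as low in the mutant as the member, and with 4 arrays in 2 groups many genes share such a pattern.

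Under the 12 alternative settings the 8 tested probe sets kept their direction, as the plot of alternatives shows.

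**Figure D5:**
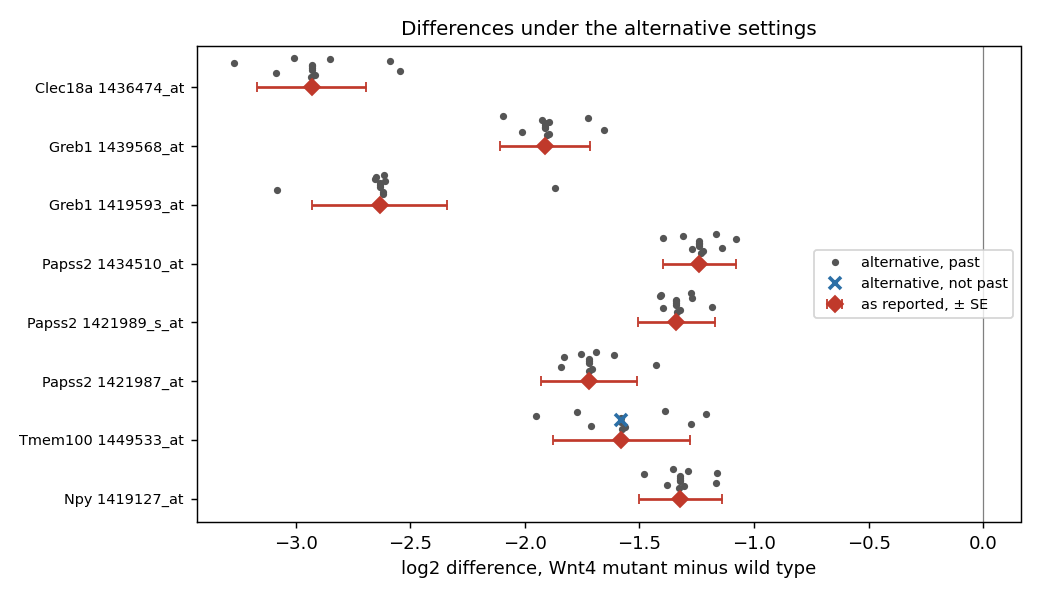
Log2 difference of Wnt4 mutant minus wild-type kidneys (horizontal axis) for the 8 tested probe sets, as reported (red diamonds, with standard errors) and under each alternative (grey points past the threshold, blue cross not past). All values lie below 0, and the cross is Tmem100 without the variance trend.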

How the data were processed

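The values were the authors' deposited signal intensities on a linear scale, 1 per probe set and array. The submitters' processing notes name GCOS, the scanner maker's software, without a version. How probes were summarised and scaled is not given in the sources used here. The trimmed mean (2% at each end) was 500.0 on each array, which is the same scale for all 4, and no detection calls were used. The number of arrays limits the precision.

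Signals were taken to log2(signal + 16) with no further normalization. The added constant understates changes of low signals. The 64 AFFX controls and the dimmest 40% of probe sets by mean log2 value were left out, which left 27022 of 45101, with a lowest mean level of 94.2. Each probe set was tested, two-sided, between the 2 groups by limma 3.58.1 (lmFit and eBayes with an intensity trend, under R 4.3.3) with Benjamini-Hochberg adjustment over all tested probe sets. It was tested on simulated data.

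Genes were named through the platform annotation, checked by gene identifier against RefSeq names of GRCm38.p6: 34945 probe sets had 1 gene, 932 several and 9160 were not listed, and 0 symbols changed. A listed gene was represented by its brightest tested probe set. Named were all members, Wnt4, direct partners of the members, up to 3 further genes of each pathway list with the smallest p, and the 2 nearest patterns of each called member. Members and lists were chosen with earlier results of these data known.

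The alternatives were quantile normalization, median centring, a constant of 1 or of 64, testing every probe set, leaving out the dimmest 60%, eBayes without the trend, the replicate number as a block, and leaving out each array. The labels do not say what a shared replicate number marks.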

Additional observations from a re-analysis of the deposited data

How the results depend on the processing

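Of 93 values of the 8 member probe sets under the alternatives, 92 stayed lower in the mutant and past the threshold, and the exception was Tmem100 without the variance trend. The count of members' probe sets called lower was 8 as reported and when any array was left out, and 7 without the trend. It was 5 with the filter on the dimmest 60%, where only 5 were tested. None was called higher in any of the 12 alternatives. Over all probe sets 2920 were called as reported and 858 without the trend, and 1479 to 3927 when 1 array was left out. The lower counts came without mutant replicate 1 (1479) and without mutant replicate 2 (1550), fits in which the lone mutant array was assumed to vary like the 2 wild-type arrays. With the replicate number as a block 2913 probe sets were called, 8 of them members. The deviations of same-numbered arrays correlated at -0.017. With 2 arrays in each group this single value cannot show whether the numbers pair the arrays. The block changed no call of a member. Wnt4 was lower in every alternative, by -2.68 to -2.13 when 1 array was left out. Of 482 values of the 41 other named genes, 14 were no longer past the threshold, 7 came past it and 6 changed sign, all of genes that were not called with all arrays. When 1 array was left out, Acvrl1 ranged from -0.14 to 0.54, Kcnj11 from -0.82 to 0.037, Kcnj6 from -0.073 to 0.22 (-0.041 without mutant replicate 2) and Slc26a2 from -0.0064 to 0.037, and Slc26a2 was -0.00067 with quantile normalization. Signals under about the lowest tested level, as for Kcnj15 and Ccdc85a, limit what can be seen of these genes.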
